A study of Mus musculus with 10 samples.

Results

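Proteasome genes were examined in cortex RNA of amyloid-bearing mice labelled as with or without a neuronal deletion of Idol. They were taken as the protein-coding mouse genes whose symbol is Psma, Psmb, Psmc, Psmd, Psme, Psmf or Psmg followed by a digit, and whose reads summed to more than 10 over all libraries. The pattern matched 51 genes, of which 50 had enough reads, out of 19268 genes tested and 53700 identifiers counted. The gene left out was Psmb11, the beta subunit of the thymus, with 1 read in all. Psmc3ip, a partner in meiotic recombination, and Psme3ip1, a binding partner of an activator, share the name pattern without being subunits, which leaves 48 subunits and associated proteins. Sem1 and Adrm1 are subunits that the pattern does not take in, and they were followed among the partners.

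The study sequenced cortex of 10 female mice aged 4 months, 5 in each group. Every mouse carried the 5XFAD transgenes, human genes with mutations of familial Alzheimer's disease expressed in neurons, and no library without them was analysed here. The libraries labelled 5XFAD;Neu cKO came from mice whose floxed Idol alleles, gene symbol Mylip, were meant to be removed by a Camk2a-Cre transgene, which acts mainly in excitatory neurons of the forebrain and spares glia. The libraries labelled 5XFAD came from littermates given as WT for Idol and Camk2a-Cre, and their labels do not say whether a floxed allele was present. IDOL is a ubiquitin ligase that marks lipoprotein receptors for degradation in lysosomes.

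The proteasome is the protease that degrades most ubiquitin-tagged proteins of the cell. Its core particle, the 20S, is a barrel of alpha and beta rings with the proteolytic sites inside, and its cap, the 19S, has a base of ATPases that unfolds the substrate and a lid that removes ubiquitin. The catalytic beta subunits can be replaced by the interferon-inducible subunits of the immunoproteasome, which in brain is mostly known from microglia and favours peptides for antigen presentation. Assembly chaperones build the particle, and the transcription factor NFE2L1 raises its genes together through antioxidant response elements when proteasome activity is low.

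The libraries were made with the QuantSeq kit, which gives reads only near the 3′ end of a transcript, so a count does not grow with transcript length. Levels of different genes are set side by side only as counted. Reads with several places in the genome and reads on no annotated gene are not in them. Reads on genes numbered from 4320504 to 7466192 per library labelled 5XFAD and from 5148499 to 7246659 per library labelled 5XFAD;Neu cKO, a difference within the spread by an exact permutation test (two-sided p = 0.405). The targeted gene Mylip stood at 14.8 ± 4.90 CPM (reads of a gene scaled to a common library size, here by TMM; SD, n = 5) in 5XFAD;Neu cKO and at 11.2 ± 2.27 CPM in 5XFAD, with overlap, so its count did not tell apart the groups as labelled. Reads near the end of the transcript, summed per gene, do not show whether the floxed stretch was removed, so this count is no check of the deletion. The groups are called throughout by their labels. All differences are 5XFAD;Neu cKO against 5XFAD, from the quasi-likelihood test of edgeR, with adjustment after Benjamini and Hochberg over 19268 genes. The p-values of that test set a difference against the spread between these libraries, which is estimated for each gene partly from the other genes. The tissue was whole cortex, in which fewer cells of a type and less RNA per cell cannot be told apart.

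No proteasome gene passed an adjusted p under 0.05 with edgeR or with DESeq2, the smallest adjusted p in edgeR being 0.275. Over all genes 0.218% passed. At an unadjusted p under 0.05 there were 4 of the 50, beside 7.95% of all genes. Psmb3, a structural subunit of the beta ring, Psmc4, an ATPase of the base, and Psmd4, a ubiquitin receptor of the base, were the 3 that were lower, where 4.01% of all genes passed this p and were lower. Psmd5, a chaperone of base assembly, was the 1 that was higher. In Psmb3, Psmc4 and Psmd4 the groups did not overlap in CPM, which held for 1.30% of all genes, and for 0.721% with the libraries labelled 5XFAD;Neu cKO lower. Among the 42 members with a mean of at least 10 CPM the same 4 had an unadjusted p under 0.05, where 10.4% of the genes at that level did. The same 3 did not overlap, where 1.91% of such genes did not, or 1.06% with the libraries labelled 5XFAD;Neu cKO lower. Over the 50 members the fitted difference was above 0 in 24 and below 0 in 26, with a median log2 fold change of -0.02, and over all genes it was above 0 in 9617 and below 0 in 9651.

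The limits of this comparison are those of the intervals. For 35 of the 50 members the 95% interval of the difference lay within 1.5-fold either way, for 45 it lay within 2-fold, and for 46 it held 0. All 8 genes of the lid, 8 of 9 of the base, 6 of 7 constitutive beta genes and 6 of 8 alpha genes were within 1.5-fold. Only 1 of 7 assembly chaperones and 1 of 3 immunoproteasome genes were.

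**Figure D1:**
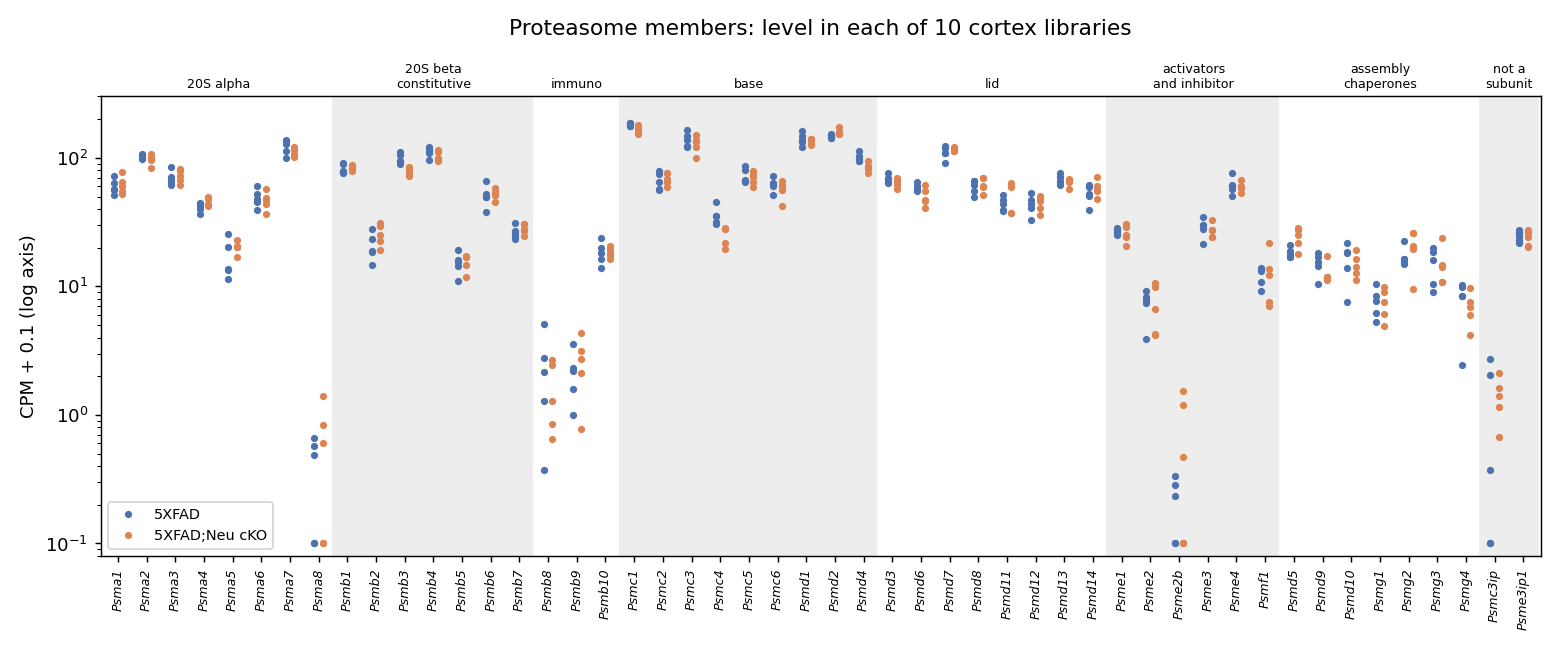
Level of the 50 proteasome genes in each library, as CPM + 0.1 on a log axis, grouped by role. Blue points are the 5 libraries labelled 5XFAD and orange points the 5 labelled 5XFAD;Neu cKO; 31 subunits of the core and cap average between 15.3 and 173 CPM, and Psmb8 and Psmb9 average 1.86 and 2.28 CPM.

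The subunits of the 26S particle, which is the core with its cap, did not share 1 level. Among the 31 with a mean of at least 10 CPM the mean ranged from 15.3 CPM in Psmb5 to 173 CPM in Psmc1, 11.4-fold. Within a group their libraries varied with a median coefficient of variation of 12.5% (4.41% to 24.0%), where counting alone gives a median of 5.12%. Across the 10 libraries, deviations from the group means of pairs of these genes correlated with a median r of 0.04 (quartiles -0.19 and 0.34), beside 0.0022 over the 8841 genes at that level, as a description of points that share libraries and scaling.

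The alpha ring gates the core. Of its 8 genes 5 were above 0 and 3 below in the fitted difference, with a median log2 fold change of 0.04 and none past an unadjusted p under 0.05. Psma7, the most abundant, measured 128, 136, 138, 112 and 99.0 CPM in 5XFAD replicates 1 to 5 and 115, 120.5, 107, 106 and 102 CPM in 5XFAD;Neu cKO replicates 1 to 5. The groups overlapped, and the log2 fold change was -0.16 (95% interval -0.36 to 0.04). Psma8, the alpha subunit of the testis, was counted 2, 2, 0, 3 and 0 times in 5XFAD and 7, 4, 0, 3 and 0 times in 5XFAD;Neu cKO, too few for a fold change.

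Of the 7 constitutive beta genes 5 were above 0 and 2 below, with a median log2 fold change of 0.03. Psmb3 (ENSMUSG00000069744, chromosome 11 of GRCm39 from 97594073 to 97604335, plus strand) was the one with an unadjusted p under 0.05. It measured 106, 110.0, 93.7, 94.3 and 90.0 CPM in 5XFAD replicates 1 to 5 and 79.8, 72.7, 74.3, 81.8 and 84.3 CPM in 5XFAD;Neu cKO replicates 1 to 5. Every library labelled 5XFAD;Neu cKO was below every library labelled 5XFAD. The means were 78.6 ± 4.95 and 98.8 ± 8.64 CPM (SD, n = 5), and the log2 fold change was -0.33 ± 0.10 (SE; 95% interval -0.54 to -0.12, adjusted p = 0.275). The exact two-sided permutation test over all relabellings gave p = 0.00794, the smallest it can give with 5 against 5. The last 300 bases of the Psmb3 transcript have 4 near-identical copies elsewhere in the genome, with up to 99.2% identity, and 3 annotated processed pseudogenes took 53, 3 and 0 reads in all beside the 5073 of Psmb3. Summed with these pseudogenes, its log2 fold change was -0.34. Reads with several places were set aside in the deposited counts, and their part in the level of Psmb3 was not tested.

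Psmb4, a structural subunit and the most abundant gene of this ring, measured 112, 120.1, 120.2, 109 and 95.4 CPM in 5XFAD and 94.8, 99.0, 96.5, 112 and 114 CPM in 5XFAD;Neu cKO. The groups overlapped (log2 fold change -0.11, 95% interval -0.31 to 0.09). The least abundant was Psmb5, one of the 3 catalytic genes, which are described with their immunoproteasome counterparts.

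The base threads the substrate into the core. Of its 9 genes 2 were above 0 and 7 below, with a median log2 fold change of -0.12, where the median of all genes was -0.00056. Psmc4 (ENSMUSG00000030603, chromosome 7 from 27738180 to 27749526, minus strand), the least abundant base gene, measured 30.6, 45.3, 31.5, 35.4 and 35.2 CPM in 5XFAD and 28.6, 19.3, 27.8, 21.7 and 27.7 CPM in 5XFAD;Neu cKO. The groups did not overlap, and replicate 2 was the highest of the 5XFAD libraries and the lowest of the 5XFAD;Neu cKO libraries. The means were 25.04 ± 4.23 and 35.6 ± 5.82 CPM (SD, n = 5), and the log2 fold change was -0.50 ± 0.16 (SE; 95% interval -0.82 to -0.18, adjusted p = 0.283).

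Psmd4 (ENSMUSG00000005625, chromosome 3 from 94937765 to 94949925, minus strand) measured 94.4, 98.5, 113, 93.58 and 104 CPM in 5XFAD and 85.6, 75.96, 81.9, 93.55 and 84.9 CPM in 5XFAD;Neu cKO. The groups were separate by the small gap between replicate 4 of each, and the annotation has a gene, Gm65650, opposite the 3′ end of Psmd4. Among other genes described by library, Psmb4, Psmb7, Psmb10 and Psme1 also have a gene opposite their 3′ end, whose reads cannot be told apart without strand. The log2 fold change was -0.26 ± 0.10 (SE; 95% interval -0.46 to -0.05, adjusted p = 0.465). Psmc1, another ATPase and the most abundant gene of the whole set, measured 188, 185, 175, 175 and 184 CPM in 5XFAD and 179.7, 153, 168, 170.1 and 156 CPM in 5XFAD;Neu cKO. Only replicate 1 of 5XFAD;Neu cKO reached the range of the 5XFAD libraries, and the log2 fold change was -0.13 (95% interval -0.31 to 0.04, adjusted p = 0.791).

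**Figure D2:**
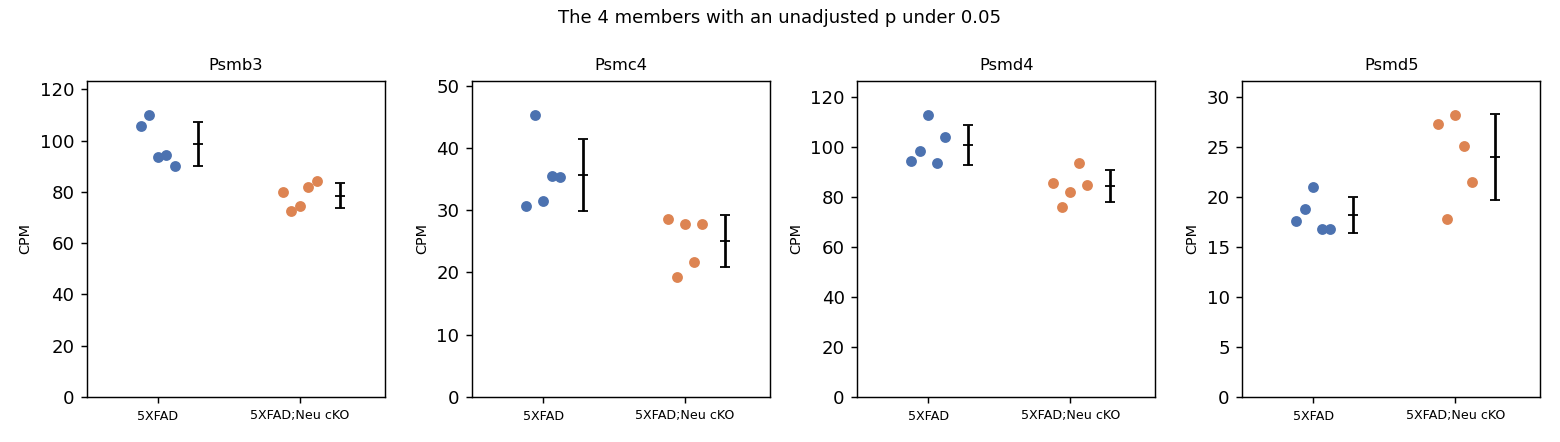
CPM of Psmb3, Psmc4, Psmd4 and Psmd5 in each library, with the mean and SD of each group (n = 5) as bars beside the points and the axis starting at 0. Psmb3, Psmc4 and Psmd4 lie lower in 5XFAD;Neu cKO without overlap, and Psmd5 overlaps through replicate 2 of 5XFAD;Neu cKO.

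The separation of these genes rested in part on how libraries were scaled. With CPM by plain library size, Psmb3 stayed apart (log2 ratio of means -0.24, exact two-sided permutation p = 0.00794, n = 5 per group). Psmc4 then overlapped (-0.42, exact permutation p = 0.0238), and so did Psmd4 (-0.17, exact permutation p = 0.0952). With mitochondrial genes left out of the library size, Psmb3 (-0.28) and Psmc4 (-0.46) stayed apart and Psmd4 (-0.21) overlapped. Plain library size moved the median log2 ratio of all genes from 0.00032 to 0.09, and the split of the 50 members, by the ratio of mean CPM, from 25 above and 25 below 0 to 36 above and 14 below.

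The lid carries the deubiquitinase Psmd14. Of its 8 genes 5 were above 0 and 3 below, with a median log2 fold change of 0.04 and none past an unadjusted p under 0.05. Psmd7, the partner of the deubiquitinase and the most abundant, measured 109, 120.1, 124, 108 and 91.1 CPM in 5XFAD and 112, 118, 114, 122 and 119.5 CPM in 5XFAD;Neu cKO. Psmd12, a scaffold subunit and the least abundant, measured 43.8, 32.8, 53.1, 40.3 and 47.1 CPM in 5XFAD and 46.4, 36.1, 47.5, 50.5 and 40.5 CPM in 5XFAD;Neu cKO. The groups overlapped in both, with log2 fold changes of 0.08 (95% interval -0.11 to 0.28) and 0.02 (-0.26 to 0.30).

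**Figure D3:**
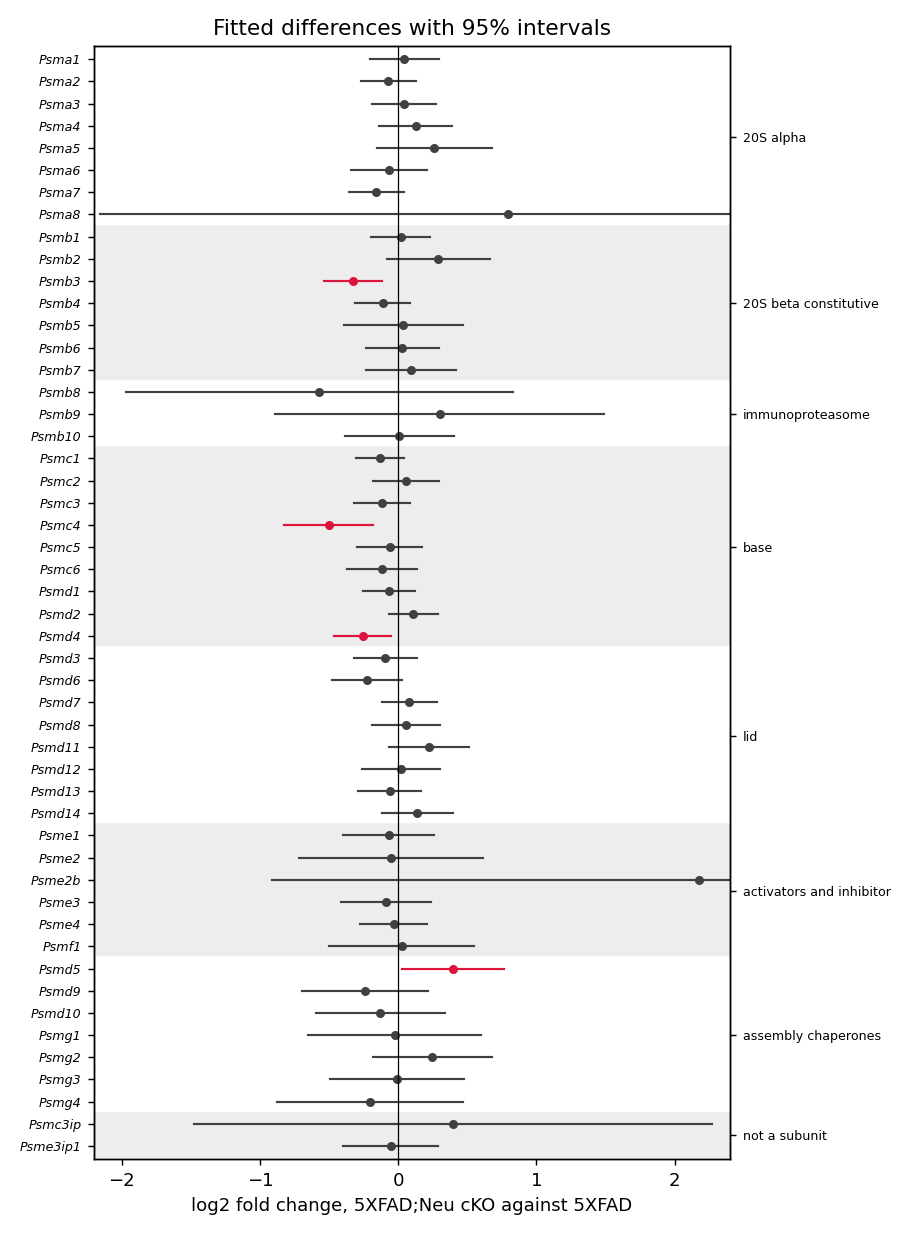
Log2 fold change of each of the 50 proteasome genes (points) with its 95% interval (lines), on an axis from -2.2 to 2.4 at which the intervals of Psma8 and Psme2b are clipped, as both were counted at most 10 times in any library. The 4 genes with an unadjusted p under 0.05 are red, and 46 of the 50 intervals hold 0.

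The start sites of 5 genes are shown, as NFE2L1 and interferon act on proteasome genes through short promoter elements. Each sequence runs 5′ to 3′ on the gene's strand of GRCm39, from 250 bases before the start of the Ensembl canonical transcript in GENCODE M39 and 300 bases in all. Capitals mark the core of the antioxidant response element (TGACNNNGC), the core of the interferon response element (GAAANNGAA) or a STAT site (TTCNNNGAA), searched on both strands, so that an element on the other strand is printed as its reverse complement. Psmb3, Psmc4 and Psmd4 are shown as the 3 members whose groups did not overlap, and Psmb5 and Psmb8 as a constitutive catalytic gene and the immunoproteasome gene that takes its place.
Psmb3, chr11:97593975-97594274, plus strand: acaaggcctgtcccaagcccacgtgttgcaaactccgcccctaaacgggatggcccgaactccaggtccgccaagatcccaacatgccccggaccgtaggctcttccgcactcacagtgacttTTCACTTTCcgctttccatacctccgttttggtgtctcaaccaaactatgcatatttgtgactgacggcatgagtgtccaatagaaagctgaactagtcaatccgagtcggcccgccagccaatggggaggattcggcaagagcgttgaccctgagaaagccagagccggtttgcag
Psmc4, chr7:27749477-27749776, minus strand: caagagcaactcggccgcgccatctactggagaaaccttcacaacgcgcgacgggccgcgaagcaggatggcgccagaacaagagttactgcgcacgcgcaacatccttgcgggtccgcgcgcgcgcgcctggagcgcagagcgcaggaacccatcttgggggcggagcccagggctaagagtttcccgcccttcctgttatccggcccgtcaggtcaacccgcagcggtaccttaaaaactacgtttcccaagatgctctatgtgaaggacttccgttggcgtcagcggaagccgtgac
Psmd4, chr3:94949876-94950175, minus strand: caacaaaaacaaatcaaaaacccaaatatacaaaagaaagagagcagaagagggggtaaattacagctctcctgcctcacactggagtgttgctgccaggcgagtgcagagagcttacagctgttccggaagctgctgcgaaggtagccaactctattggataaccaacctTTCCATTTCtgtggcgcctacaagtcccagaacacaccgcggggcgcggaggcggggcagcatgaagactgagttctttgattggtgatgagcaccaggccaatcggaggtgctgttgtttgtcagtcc
Psmb5, chr14:54855432-54855731, minus strand: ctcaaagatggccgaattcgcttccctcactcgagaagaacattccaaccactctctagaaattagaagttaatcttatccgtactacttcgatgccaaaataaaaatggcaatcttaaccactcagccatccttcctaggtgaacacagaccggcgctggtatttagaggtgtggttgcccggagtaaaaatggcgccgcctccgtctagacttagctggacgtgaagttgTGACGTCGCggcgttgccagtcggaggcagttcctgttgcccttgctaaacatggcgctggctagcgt
Psmb8, chr17:34416440-34416739, plus strand: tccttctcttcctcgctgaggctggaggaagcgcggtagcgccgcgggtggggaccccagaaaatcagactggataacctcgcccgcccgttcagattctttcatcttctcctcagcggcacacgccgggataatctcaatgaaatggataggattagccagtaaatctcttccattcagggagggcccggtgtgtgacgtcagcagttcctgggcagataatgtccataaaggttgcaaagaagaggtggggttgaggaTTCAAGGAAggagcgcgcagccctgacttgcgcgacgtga

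Counted from the first base of the transcript as 0, Psmb3 held an interferon response core at -127 to -119 and Psmd4 one at -79 to -71. Psmb5 held an antioxidant response core at -18 to -10, and Psmb8 held a STAT site, which reads the same on both strands, at 10 to 18. Psmc4 held none of the 3 in this window. Over the 49 subunits and associated genes that were searched, Psmb11 included, the antioxidant core was in 16.3% of the windows and in 12.5% of all 21770 protein-coding windows of the same length. The interferon core was in 16.3% against 8.78%, the STAT site in 10.2% against 8.81%, and the CCAAT box (CCAAT), which is not capitalised, in 36.7% against 39.9%. A match describes letters and shows no binding.

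The catalytic pairs of the core were compared one by one, since each immunoproteasome subunit replaces 1 constitutive subunit. Neither the constitutive nor the immunoproteasome member of any pair had an unadjusted p under 0.05. Psmb5, with the chymotrypsin-like site, measured 14.3, 19.01, 15.9, 11.0 and 15.3 CPM in 5XFAD and 14.6, 16.7, 17.2, 11.8 and 17.0 CPM in 5XFAD;Neu cKO. Its counterpart Psmb8 was counted 26, 5, 2, 11 and 12 times in 5XFAD and 4, 3, 9, 14 and 18 times in 5XFAD;Neu cKO, at means of 2.25 ± 1.81 and 1.48 ± 0.932 CPM (SD, n = 5). The 5XFAD libraries spread from 0.272 to 5.04 CPM, the highest in replicate 1, and the 5XFAD;Neu cKO libraries from 0.552 to 2.59 CPM. The log2 fold change of -0.57 had a 95% interval from -1.97 to 0.83 (adjusted p = 0.934). With 1 library left out, it ran from -0.87 to -0.03.

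Psmb6, with the caspase-like site, measured 49.6, 65.9, 49.7, 52.6 and 37.5 CPM in 5XFAD and 45.6, 51.7, 51.3, 53.8 and 57.7 CPM in 5XFAD;Neu cKO. Its counterpart Psmb9 was counted 18, 9, 11, 12 and 4 times in 5XFAD and 14, 11, 32, 4 and 21 times in 5XFAD;Neu cKO. The groups overlapped in both, with log2 fold changes of 0.03 (95% interval -0.23 to 0.29) for Psmb6 and 0.30 (-0.89 to 1.49) for Psmb9. Psmb9 (chromosome 17 from 34400960 to 34406738, minus strand) overlaps the peptide transporter gene Tap1, on the other strand, at the 5′ ends of both. Psmb8 (34416690 to 34420428, plus strand) lies just beyond Tap1 in the major histocompatibility region, with a predicted gene opposite its 3′ end.

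Psmb7, with the trypsin-like site, measured 26.7, 25.3, 31.0, 24.4 and 23.1 CPM in 5XFAD and 30.5, 30.3, 26.7, 24.4 and 28.01 CPM in 5XFAD;Neu cKO. Its counterpart Psmb10, outside that region on chromosome 8, measured 18.02, 23.7, 16.2, 19.9 and 13.9 CPM in 5XFAD and 18.1, 17.5, 19.6, 20.7 and 16.1 CPM in 5XFAD;Neu cKO. The 5XFAD;Neu cKO libraries of Psmb10 all lay within the range of the 5XFAD libraries, with a log2 fold change of 0.0064 (95% interval -0.39 to 0.40, adjusted p = 0.998). For Psmb7 it was 0.09 (-0.23 to 0.42).

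The pairs differed in how much of their reads was immunoproteasome. Psmb8 made up 8.88% ± 5.79 of the reads of Psmb5 and Psmb8 in 5XFAD;Neu cKO and 12.8% ± 9.49 in 5XFAD (SD, n = 5). Psmb9 made up 4.59% ± 2.33 and 3.80% ± 1.67 of its pair, and Psmb10 made up 39.7% ± 4.22 and 41.1% ± 5.62. In each pair the groups overlapped, and the share of Psmb10 was above that of Psmb8 and Psmb9 in all 10 libraries.

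**Figure D4:**
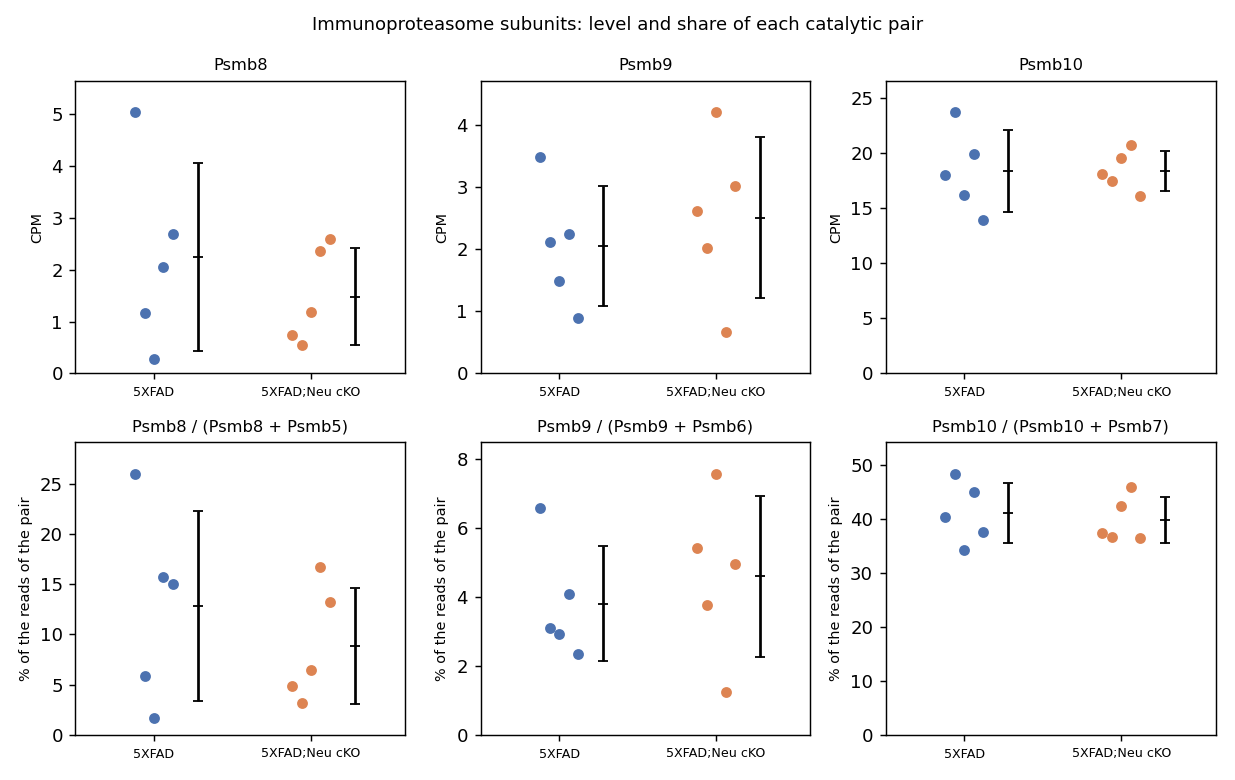
Upper row, CPM of the immunoproteasome genes Psmb8, Psmb9 and Psmb10 in each library; lower row, their share in percent of the reads of their catalytic pair. Bars give the mean and SD of each group (n = 5) and axes start at 0; the groups overlap in all 6 panels, and Psmb10 takes 34.3% to 48.3% of its pair.

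Genes of microglia moved between the same libraries in which no immunoproteasome gene passed the test. All 15 microglial markers were below 0, 7 of them at an adjusted p under 0.05, with a median log2 fold change of -0.67, and their summed level was 358 to 457 CPM in 5XFAD;Neu cKO and 537 to 781 CPM in 5XFAD. The summed level of Psmb8, Psmb9 and Psmb10 was 22.4 ± 1.94 and 22.6 ± 4.62 CPM (SD, n = 5), with the 5XFAD;Neu cKO libraries inside the range of the 5XFAD libraries. Most of this sum was Psmb10, at a mean of 18.4 CPM over all libraries beside 1.86 for Psmb8 and 2.28 for Psmb9. It therefore says little of Psmb8 and Psmb9, whose 95% intervals ran from -1.97 to 0.83 and from -0.89 to 1.49. None of the 15 markers was at 0 in any library, and their part in the immunoproteasome levels was not tested. Markers of astrocytes were below 0 in 7 of 8 and of oligodendrocytes in 8 of 8, with 1 of each at an adjusted p under 0.05. The 6 markers of excitatory neurons, the cells in which Camk2a-Cre acts, summed to 4098 ± 214 and 4317 ± 369 CPM, with overlap. Of 5 T cell markers, Cd3e, Cd3g, Cd8a and Cd2 had 1, 0, 3 and 0 reads over all libraries. The other, Trbc2, had 428 reads, from 8 to 70 per library. It stood at 7.48 ± 0.669 CPM in 5XFAD;Neu cKO and 7.02 ± 3.34 CPM in 5XFAD (SD, n = 5), with overlap (log2 fold change 0.08, 95% interval -0.58 to 0.75).

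Of the 12 genes of antigen processing and interferon response followed beside them, 3 were above 0 and 9 below, 0 passed an adjusted p under 0.05 in edgeR, and 2 had an unadjusted p under 0.05, beside 7.95% of all genes. These 2 were B2m, the light chain of class I molecules, with a log2 fold change of -0.32 (adjusted p = 0.402), and Pdia3, a chaperone of class I folding, with -0.31 (adjusted p = 0.310). The groups overlapped in both. B2m was highest in 5XFAD replicate 1 at 195 CPM, and Pdia3 in 5XFAD;Neu cKO replicate 1 at 202 CPM. The transporter genes Tap1 and Tap2 stood at log2 fold changes of -0.54 (95% interval -1.91 to 0.82) and 0.34 (-0.50 to 1.18). The largest fold change of the 12 was that of Irf1, counted 7 to 57 times per library, at 0.80 (95% interval -0.014 to 1.61), with overlap.

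Other caps can take the place of the 19S. Of the 6 genes of activators and the inhibitor 2 were above 0 and 4 below, with a median log2 fold change of -0.04 and none past an unadjusted p under 0.05. By the ratio of mean CPM the split was also 2 and 4 with TMM, but 6 above and 0 below by plain library size (median 0.05) and 4 above and 2 below without mitochondrial genes (median 0.01), so this class had no direction that held over the scalings. Psme1, 1 of the 2 subunits of the interferon-inducible activator, measured 24.9996, 27.7, 27.4, 28.5 and 26.5 CPM in 5XFAD and 30.5, 20.6, 24.8, 28.9 and 24.1 CPM in 5XFAD;Neu cKO. The other partner, Psme2, measured 8.14, 7.27, 7.74, 9.13 and 3.82 CPM in 5XFAD and 4.11, 10.5, 6.56, 9.76 and 4.17 CPM in 5XFAD;Neu cKO. Their log2 fold changes were -0.07 (95% interval -0.40 to 0.26) and -0.05 (-0.72 to 0.61), with the narrow 5XFAD range of Psme1 inside that of 5XFAD;Neu cKO.

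Psme4, the large activator of the nucleus and the most abundant of these genes, measured 60.7, 61.7, 56.6, 50.7 and 75.9 CPM in 5XFAD and 57.8, 53.2, 60.8, 59.6 and 66.8 CPM in 5XFAD;Neu cKO. The 5XFAD;Neu cKO libraries lay inside the 5XFAD range (log2 fold change -0.03, 95% interval -0.27 to 0.21). Psme2b, a near-identical copy of Psme2, was counted 0, 1, 1, 1 and 0 times in 5XFAD and 2, 6, 0, 0 and 10 times in 5XFAD;Neu cKO, and the 2 genes can share reads at their 3′ ends, so both are uncertain and no fold change is given for Psme2b.

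Assembly chaperones build the rings and the base, and their means ran from 7.29 CPM in Psmg4 to 21.1 CPM in Psmd5. Of the 7 genes 2 were above 0 and 5 below, with a median log2 fold change of -0.02, and by the ratio of mean CPM 3 were above and 4 below with TMM but 4 above and 3 below under both other scalings. Psmd5 (ENSMUSG00000026869, chromosome 2 from 34739746 to 34764980, minus strand) measured 17.6, 18.8, 21.1, 16.8 and 16.8 CPM in 5XFAD and 27.3, 17.8, 28.2, 25.1 and 21.5 CPM in 5XFAD;Neu cKO. All 5XFAD;Neu cKO libraries but replicate 2 were above every 5XFAD library. The means were 24.0 ± 4.30 and 18.2 ± 1.78 CPM (SD, n = 5), and the log2 fold change was 0.40 ± 0.18 (SE; 95% interval 0.03 to 0.76, adjusted p = 0.569). Psmg4, a chaperone of the alpha ring, measured 2.33, 9.85, 10.2, 8.39 and 8.30 CPM in 5XFAD and 4.11, 6.81, 5.91, 9.59 and 7.47 CPM in 5XFAD;Neu cKO, with overlap (log2 fold change -0.20, 95% interval -0.88 to 0.47).

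Summed over its 15 genes, the core stood at 840.0 ± 19.4 CPM in 5XFAD;Neu cKO and 868 ± 52.4 CPM in 5XFAD (SD, n = 5), a ratio of 0.968. The 17 genes of the cap stood at 1403 ± 52.9 and 1451 ± 54.4 CPM, a ratio of 0.967, and within it the 9 base genes stood at 891 ± 43.5 and 946 ± 36.1 CPM. The groups overlapped in all of these sums. By plain library size both ratios were 1.03, on the other side of 1, where the median log2 ratio of all genes rose to 0.09.

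**Figure D5:**
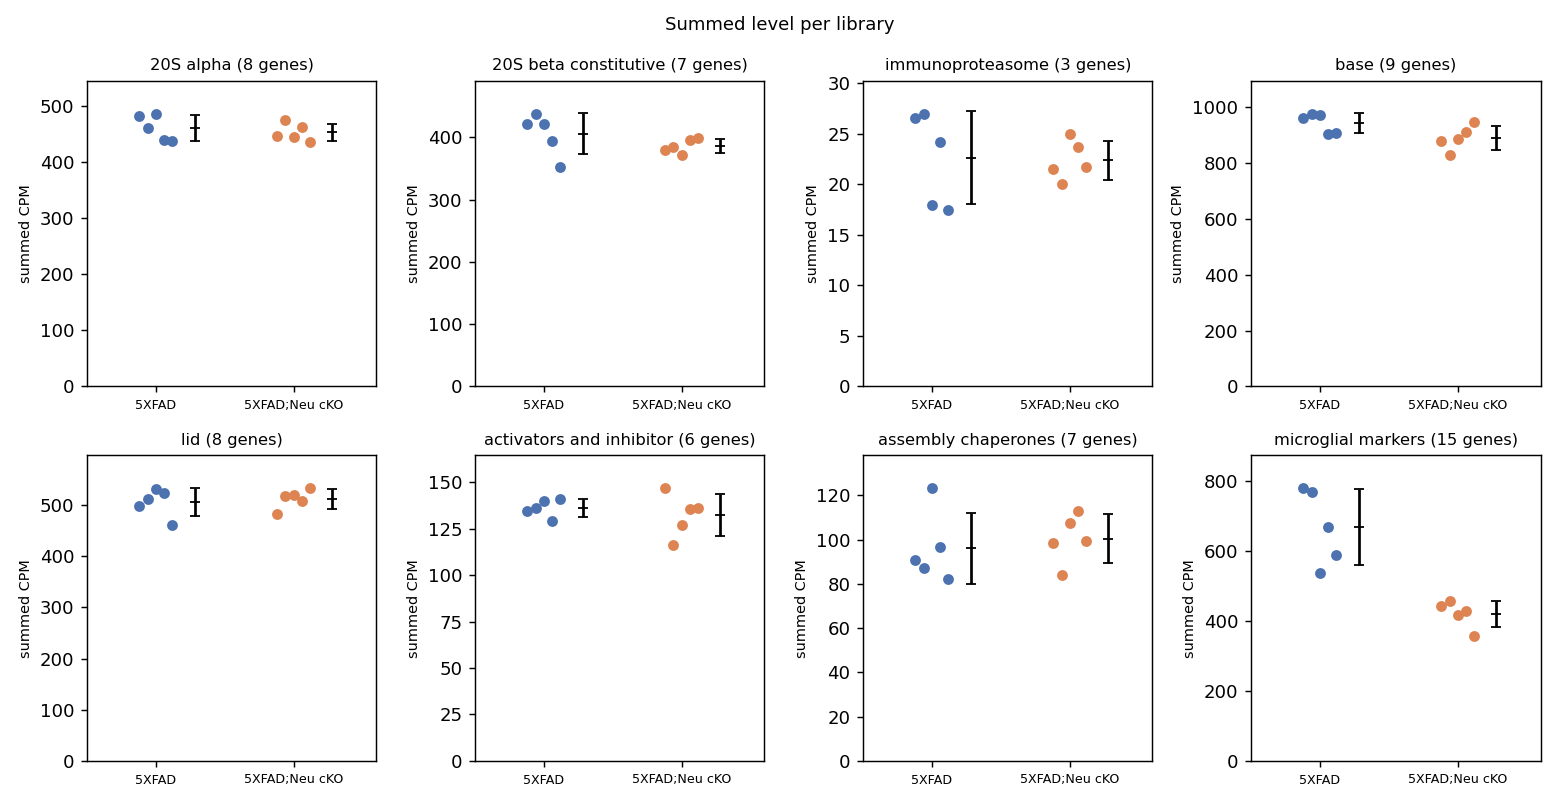
Summed CPM per library of each class of proteasome gene and of 15 microglial markers, with the mean and SD of each group (n = 5) as bars and axes from 0. The groups overlap in every proteasome class and are apart in the microglial markers, at 358 to 457 against 537 to 781 CPM.

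Genes that serve the proteasome without being matched by name were followed as a list of 26, of which 25 were tested. In the fitted difference 13 were above 0 and 12 below, 0 passed an adjusted p under 0.05 in edgeR, and 5 had an unadjusted p under 0.05, beside 7.95% of all genes. Zfand5, which binds the 26S particle and raises its activity, measured 69.2, 55.1, 78.7, 65.4 and 61.9 CPM in 5XFAD and 79.3, 85.7, 81.0, 95.6 and 81.2 CPM in 5XFAD;Neu cKO. Every library labelled 5XFAD;Neu cKO was above every 5XFAD library, where 1.30% of all genes had groups without overlap (log2 fold change 0.35, adjusted p = 0.283). Akirin2, which brings proteasomes into the nucleus, stood at 0.36 on the log2 scale (adjusted p = 0.421), and Uba1, the main ubiquitin-activating enzyme, at -0.20 (adjusted p = 0.601). The groups overlapped in both. Nfe2l1, the transcription factor of proteasome genes, stood at -0.02 (95% interval -0.21 to 0.16), and the subunits Sem1 and Adrm1 at 0.11 (-0.15 to 0.37) and -0.13 (-0.58 to 0.32).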

How the data were processed

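Cortex RNA of 10 mice was sequenced as QuantSeq 3′ libraries in single reads of 76 bases. Before alignment with STAR 2.7.3a to GRCm39, the authors removed adapter and poly(A) sequence. They counted the reads per Ensembl gene with HTSeq, given as version 0.9.1 in the submitters' processing notes, and deposited these counts without normalization. The strand setting of the counting is not given in the sources used here, so genes that overlap on the other strand are uncertain. Summary rows for reads on no gene, 31.3% to 39.9% of the reads the counting kept, entered neither library sizes nor tests. Symbols came from GENCODE M39, which named 52610 of 53700 identifiers.

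For genes with a total over 10 the groups were set against each other by edgeR 4.0.16 in R 4.3.3 (TMM, estimateDisp, glmQLFit, glmQLFTest, group as the only term, threshold 0.05), after the steps were tested on simulated data. The 95% interval is the log2 fold change ± the t quantile times its standard error. Single genes were also compared by an exact two-sided permutation test of mean log2(CPM + 1). Alternatives were DESeq2 1.42.0 (the authors' tool), its size factors, other filters, a robust fit, no mitochondrial genes, a replicate block and each library left out. Other scalings for single genes and classes, the level of 10 CPM and a sum of Psmb3 with its pseudogenes were added after seeing the data. Copies were searched with blastn 2.17.0 in the last 300 transcript bases, over at least 76 bases at 95% identity. In Psmb2, a constitutive beta gene, 317 other places matched, with up to 98.1% identity, and their effect on its count was not tested.

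The members, lists and tests were chosen with earlier results of these data known. Named genes are the catalytic subunits and their immunoproteasome counterparts, Psme1 and Psme2, members with an unadjusted p under 0.05 or without overlap, the highest and lowest of each class, partners with an unadjusted p under 0.05, and Mylip. Some genes that the rule covers are left out of the text. Nfe2l1, Sem1, Adrm1, Tap1, Tap2, Irf1, B2m, Pdia3 and the T cell markers were named outside this rule, after their values were seen. Psmb2 was also named outside it, for its copies.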

Additional observations from a re-analysis of the deposited data

Results flagged for a closer look

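In 3 of 100 groups of 5 libraries, 50 proteasome genes in each of 2 conditions, 1 library stood so far from the other 4 that its gap was over 0.71 of the group's range. Chance alone does this in about 1 of 20 groups. Psmd9, an assembly chaperone of the base, measured 17.1 CPM in 5XFAD;Neu cKO replicate 3 and 11.1 to 11.8 CPM in the other libraries of its group. Psmg2, a chaperone of the alpha ring, measured 22.3 CPM in 5XFAD replicate 3 and 14.8 to 16.2 CPM in the others. Psmg4, another chaperone of the alpha ring, measured 2.33 CPM in 5XFAD replicate 1 and 8.30 to 10.2 CPM in the others. All 3 are assembly chaperones, whose means ran only from 7.29 CPM in Psmg4 to 21.1 CPM in Psmd5. The low Psmg4 value was 12 reads, and parts of the 3′ end of Psmd9 recur at 7 other places in the genome.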

How the results depend on the processing

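The count of proteasome genes past an adjusted p under 0.05 was 0 in edgeR, in DESeq2 and in every other setting, the smallest adjusted p being 0.0529 for Psmb3 in DESeq2, which gave an adjusted p to 33 of the 50. The adjusted p of Psmb3 ranged from 0.0529 to 0.598, highest without 5XFAD replicate 2. That of Psmc4 ranged from 0.125 to 0.639, of Psmd4 from 0.192 to 0.672 and of Psmd5 from 0.509 to 0.820. With 1 library left out, 3 to 5 members had an unadjusted p under 0.05. Over all genes, 42 passed an adjusted p under 0.05, 73 in DESeq2, 103 with no filter on low counts and 26 to 72 with 1 library left out. It was 26 without 5XFAD replicate 2, 27 without 5XFAD;Neu cKO replicate 4 or 5 and 72 without 5XFAD;Neu cKO replicate 1. The cause was not tested.

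Replicate numbers did not pair the libraries (correlations of deviations from -0.05 to 0.02, no library closest to its own number). With the replicate number as a block 112 genes passed, and 0 proteasome genes.

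By plain library size the median log2 ratio was 0.13 for the alpha ring, 0.13 for the constitutive beta genes, 0.13 for the core, -0.024 for the base, 0.12 for the lid and 0.023 for the cap, and the ratio of summed CPM was 1.03 for the core and 1.03 for the cap, while the median of all genes rose to 0.09. With 1 library left out, the median of the base ran from -0.14 to -0.045 (without 5XFAD;Neu cKO replicate 2) and that of the lid from -0.012 to 0.10 (without 5XFAD replicate 3). Leaving out 1 library turned the sign of 7 genes near 0, whose log2 fold changes then ran from -0.075 to 0.11 (Psmb10), -0.057 to 0.13 (Psmb5), -0.061 to 0.13 (Psmb6), -0.063 to 0.11 (Psmd12), -0.13 to 0.00046 (Psme1), -0.24 to 0.091 (Psme2) and -0.092 to 0.056 (Psme4). The other members refitted singly kept their direction in every setting run for them. Class medians near 0 changed sign by less than the spread between libraries: those of the alpha ring, the constitutive beta genes, the immunoproteasome, the lid, the activators and the chaperones with 1 or more libraries left out, and those of the activators (0.05 and 0.01) and the chaperones (0.06 and 0.02) also by plain library size and without mitochondrial genes. The median of the cap was -0.062 in the main fit and changed sign by plain library size, to 0.023. Partners, antigen-processing genes, markers and Mylip were not followed through the other fits, but the lists were rescaled. By the ratio of mean CPM, all 15 microglial markers were below 0 under each scaling. Of 8 astrocyte markers 7 were below 0 with TMM, 5 by plain library size and 6 without mitochondrial genes. For 8 oligodendrocyte markers this was 8, 7 and 8, and for 6 excitatory neuron markers 4, 1 and 4. Antigen-processing genes were below 0 in 9, 8 and 9 of 12, and partners in 12, 10 and 10 of 25. Depth limits Psma8, Psme2b, Psmc3ip, Psmb8 and Psmb9, each counted at most 32 times in any library.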
